A study of Mus musculus with 15 samples.

Results

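Olfr1426, Olfr1408, Olfr509, Olfr479, Olfr749 and Olfr121 are 6 odorant receptor genes of the mouse, out of 1107 intact receptor genes in the count table and 866 with enough counts to be tested. They were chosen from these data: the loss of signal when both odorants shared 1 filter paper was larger for acetophenone with decanal than for octanal with cis-3-hexenol. That difference is therefore given as a description. The fit over all genes included it, but a receptor's place in that fit is no support for the choice. All 6 passed the filter on low counts. Messenger RNA bound to ribosomes that carry phosphorylated S6 protein was immunoprecipitated from olfactory epithelium and sequenced. The mice were wild-type C57BL/6J males, 8 weeks old, kept for 4 h without odour and then exposed for 90 min. A+D mice received acetophenone and decanal on 1 paper, and A&D mice received the same odorants on 2 papers 1 mm apart. For O+C the odorants were octanal and cis-3-hexenol on 1 paper, and for O&C the same on 2 papers. Control mice had empty papers. Each odorant was given as 10 µL, and each of the 5 groups had 3 biological replicates, with no statement in the labels on whether a library pools animals. Single odorants were not given, so the separate contributions of a pair cannot be told apart.

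Odorant receptors are G protein-coupled receptors, and a mature olfactory sensory neuron as a rule transcribes 1 receptor allele. An odorant activates those neurons whose receptor it binds as an agonist, and the components of a mixture can also hinder one another at a receptor. Activity leads to phosphorylation of ribosomal protein S6, so the precipitate gains transcripts of active neurons, their receptor among them. A receptor's level in these libraries therefore serves as a readout of its neurons, and in bulk tissue fewer cells of a type and less RNA per cell cannot be told apart.

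The receptors came from several branches of the family. RefSeq synonyms named Olfr1408 (ENSMUSG00000062527) as MOR267-4, Olfr509 (ENSMUSG00000049280) as MOR267-14 and Olfr479 (ENSMUSG00000043855) as MOR267-15. Olfr1426 (ENSMUSG00000044994) was MOR239-1, Olfr749 (ENSMUSG00000059069) was MOR106-1 and Olfr121 (ENSMUSG00000060017) was MOR263-4. In the GRCm38 annotation Olfr1408 lies on chromosome 1, Olfr509 and Olfr479 on chromosome 7, Olfr749 on chromosome 14, Olfr121 on chromosome 17 and Olfr1426 on chromosome 19. Olfr509 and Olfr479 shared 77.9% of their coding bases and each was the other's closest receptor. Every other pair among the 6 shared between 54.1% and 57.6%, including Olfr1408 with the other MOR267 genes.

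For the remaining 4, the closest receptor was a neighbour on the same chromosome. The closest relatives lay 1 or 2 places away in the order of receptor genes. The sequences show how far each pair differs: each line holds the 60 coding bases, without a gap, that have the most substitutions between the receptor and its closest relative. Sequences are from GENCODE transcripts on GRCm38, on the coding strand and 5′ to 3′. Capitals mark the bases that differ within the pair. The windows of Olfr1426 and Olfr1425 cover coding bases 592 to 651, counted from the A of the start codon, with 15 of the 46 substitutions of the pair. Those of Olfr1408 (736 to 795) and Olfr1406 (688 to 747) hold 15 of 69, those of Olfr509 and Olfr479 (416 to 475) hold 27 of 194, those of Olfr749 and Olfr747 (741 to 800) hold 7 of 16, and those of Olfr121 and Olfr119 (129 to 188) hold 8 of 43.
Olfr1426: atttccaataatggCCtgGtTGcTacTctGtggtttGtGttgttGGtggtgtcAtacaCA
Olfr1425: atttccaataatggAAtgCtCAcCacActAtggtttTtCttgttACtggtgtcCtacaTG
Olfr1408: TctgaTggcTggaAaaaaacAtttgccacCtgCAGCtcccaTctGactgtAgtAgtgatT
Olfr1406: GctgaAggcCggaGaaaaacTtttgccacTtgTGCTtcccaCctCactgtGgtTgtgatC
Olfr509: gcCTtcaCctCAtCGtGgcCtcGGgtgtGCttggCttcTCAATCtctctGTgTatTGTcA
Olfr479: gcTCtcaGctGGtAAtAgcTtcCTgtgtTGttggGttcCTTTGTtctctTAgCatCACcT
Olfr749: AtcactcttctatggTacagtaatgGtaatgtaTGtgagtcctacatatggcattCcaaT
Olfr747: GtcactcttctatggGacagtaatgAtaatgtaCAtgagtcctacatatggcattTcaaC
Olfr121: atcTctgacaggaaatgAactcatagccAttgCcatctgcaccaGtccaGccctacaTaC
Olfr119: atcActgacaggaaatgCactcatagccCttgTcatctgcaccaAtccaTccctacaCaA

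Olfr749 and Olfr747 were the most alike, at 98.3% of coding bases. Estimated counts were not whole in all 15 libraries for Olfr749, in 14 for Olfr1426, 12 for Olfr121, 11 for Olfr509, 9 for Olfr479 and 1 for Olfr1408, within a tolerance of 5e-04. Values that are not whole can arise where reads are divided between genes, and the size of the resulting uncertainty was not determined.

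Library totals ran from 22704193 to 25287077 counts, and receptor transcripts made up between 0.309% and 0.573% of them. This share was 0.320% to 0.435% in A+D and 0.455% to 0.486% in A&D, without overlap. It was 0.453% to 0.482% in O+C, 0.423% to 0.573% in O&C and 0.309% to 0.365% in Control. The tissue label was checked on 7 markers of mature olfactory neurons, all detected, Omp among them. Their summed level was 8810 to 10800 CPM (library-scaled counts after TMM) in A+D, 11000 to 13600 CPM in A&D, 12500 to 15600 CPM in O+C, 12700 to 17500 CPM in O&C and 7590 to 8590 CPM in Control. The ranges rise in the group order that the means of Olfr1408 and Olfr509 also follow, and the part of this marker sum in the receptor levels was not tested. A+D 2 correlated less with the remaining libraries than they did on average (0.958, the others 0.970 to 0.978), and 1.99% of its counts were of ribosomal protein genes (0.821% to 1.39% in the others).

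The first set of receptors, Olfr1408, Olfr509 and Olfr479, all of MOR267, responded to both odorant pairs. Olfr1408 had 3.02, 4.52 and 4.85 CPM in A+D and 33.3, 20.6 and 15.7 CPM in A&D. It had 27.4, 31.5 and 26.0 CPM in O+C, 27.8, 46.8 and 46.1 CPM in O&C, and 1.17, 1.95 and 2.07 CPM in Control. Every A+D library was below every A&D library and above every Control library, whereas the O+C and O&C ranges overlapped. Olfr509 had 5.24, 12.4 and 9.18 CPM in A+D and 51.7, 27.5 and 39.0 CPM in A&D. It had 54.3, 80.5 and 67.8 CPM in O+C, 61.9, 84.4 and 92.9 CPM in O&C, and 3.56, 5.38 and 4.21 CPM in Control. Its lowest A+D library lay within the Control range, and A&D lay below both octanal groups without overlap. Olfr479 had 12.8, 21.6 and 26.2 CPM in A+D and 84.0, 81.4 and 65.8 CPM in A&D. It had 64.3, 72.4 and 45.7 CPM in O+C, 62.3, 92.9 and 84.8 CPM in O&C, and 6.30, 7.46 and 7.23 CPM in Control. Here A&D reached the level of the octanal groups, and A+D stood alone between those groups and Control.

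The second set, Olfr1426, Olfr749 and Olfr121, stood above Control with acetophenone and decanal but not with octanal and cis-3-hexenol, where 2 did not pass the test and Olfr749 was lower in a call that did not hold under every alternative. Olfr1426 had 16.3, 20.3 and 19.9 CPM in A+D and 64.1, 69.8 and 58.4 CPM in A&D. It had 5.60, 7.23 and 6.53 CPM in O+C, 5.81, 6.39 and 7.61 CPM in O&C, and 5.41, 5.03 and 6.69 CPM in Control. The ranges of O+C, O&C and Control overlapped, and A&D and A+D each stood apart above them. Olfr749 had 15.1, 20.5 and 21.1 CPM in A+D and 36.2, 34.0 and 33.0 CPM in A&D. It had 3.53, 4.26 and 4.08 CPM in O+C, 1.95, 3.40 and 2.23 CPM in O&C, and 4.4, 5.26 and 4.26 CPM in Control. Among the 6 it was the one receptor whose O+C libraries were all above its O&C libraries. Olfr121 had 6.21, 7.40 and 6.20 CPM in A+D and 18.5, 16.2 and 16.5 CPM in A&D. It had 4.61, 4.66 and 4.90 CPM in O+C, 4.47, 6.39 and 4.81 CPM in O&C, and 2.91, 4.55 and 4.83 CPM in Control. Only A&D stood well apart, and the A+D range overlapped that of O&C.

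**Figure D1:**
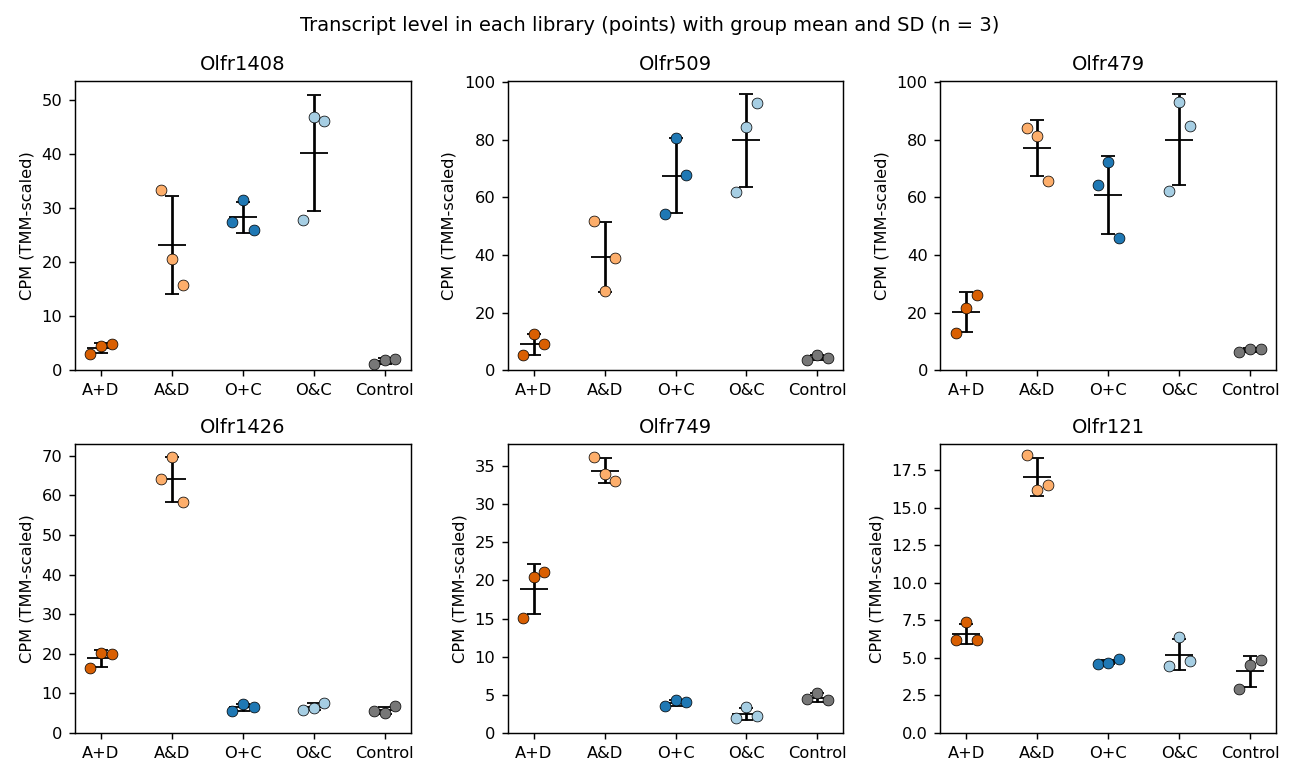
Level of each receptor (vertical axis, TMM-scaled CPM, a separate scale per panel) in A+D, A&D, O+C, O&C and Control, with 1 point per library, the group mean and the SD (n = 3). In all 6 panels the A+D points lie below the A&D points, while O+C and O&C overlap in every panel except that of Olfr749.

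The order of the group means differed between the sets. Olfr479 averaged 20.2 ± 6.82 CPM in A+D and 77.0 ± 9.84 CPM in A&D, then 60.8 ± 13.7 CPM in O+C and 80.0 ± 15.9 CPM in O&C, with 7.0 ± 0.611 CPM in Control (SD, n = 3 each). Its O&C, A&D and O+C ranges overlapped from neighbour to neighbour. Olfr1426 averaged 18.8 ± 2.22 CPM in A+D and 64.1 ± 5.70 CPM in A&D, then 6.45 ± 0.819 CPM in O+C and 6.60 ± 0.918 CPM in O&C, with 5.71 ± 0.872 CPM in Control (SD, n = 3 each). Only its upper 2 groups were separated from their neighbours.

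Averaged over both deliveries, acetophenone and decanal raised each of the 6 receptors over Control. This comparison is not the contrast that chose them, but it uses the same libraries, and a large loss on 1 paper needs a raised level in A&D, so the direction was largely set by the choice. All 6 were called higher at an adjusted p under 0.05 (9.24% of the 866 tested receptors and 0.962% of all 19229 tested genes were), and that count is no independent support. Olfr1426 rose by 2.60 ± 0.15 on the log2 scale (SE, edgeR quasi-likelihood adjusted p = 7.84e-09), a 6.08-fold rise, and all 6 of its odour libraries exceeded the Control libraries. Olfr1408 rose by 2.50 ± 0.29 (adjusted p = 8.59e-05), Olfr479 by 2.49 ± 0.23 (adjusted p = 7.19e-06) and Olfr749 by 2.46 ± 0.17 (adjusted p = 1.19e-07), again in 6 of 6 libraries. Olfr509 rose by 2.10 ± 0.28 (adjusted p = 0.000918), with 5 of 6 libraries above the Control range. Olfr121 had the smallest rise of the 6, at 1.37 ± 0.17 (adjusted p = 0.000157), in 6 of 6 libraries. The median over the 6 was 2.47, beside -0.04 over all tested receptors and 0.01 over all tested genes.

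With octanal and cis-3-hexenol the 6 divided. Called higher were 3 of the 6, all of MOR267, and 1 was called lower, beside 14.4% of tested receptors higher and 12% lower (10.1% and 7.04% of all genes). Olfr1408 rose by 4.28 ± 0.30 on the log2 scale (edgeR adjusted p = 2.02e-07), Olfr509 by 4.06 ± 0.30 (adjusted p = 1.11e-06) and Olfr479 by 3.32 ± 0.23 (adjusted p = 2.59e-07), each in 6 of 6 libraries. As folds these were 19.5, 16.7 and 9.96. Olfr1426 differed from Control by 0.19 ± 0.14 (adjusted p = 0.363), with an approximate 95% interval from -0.11 to 0.50. Olfr121 differed by 0.28 ± 0.17 (adjusted p = 0.284), with an interval from -0.10 to 0.66. These misses leave room for small changes. Olfr749 fell by 0.55 ± 0.17 (adjusted p = 0.0303). That call was lost when any 1 of 6 libraries was left out (Control 1, Control 2, Control 3, O+C 1, O&C 1 or O&C 3), with adjusted p up to 0.155. It was also lost when libraries were scaled on receptor genes alone, where the value was -0.30 (adjusted p = 0.294), and in a fit over the O+C, O&C and Control libraries alone (-0.54, adjusted p = 0.0512). Under the receptor-only scaling 146 receptors were higher and 21 lower with this pair, against 125 and 104 under TMM over all genes. Both pairs were set against the same Control libraries. The O+C and O&C libraries also enter the contrast that chose the 6, so these counts are no independent support. That choice favours a low level in O&C relative to O+C. Against Control, Olfr749 changed by -0.23 ± 0.19 in O+C and by -0.87 ± 0.20 in O&C.

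Set directly against each other, with deliveries averaged, the odorant pairs differed for all 6 receptors. Acetophenone and decanal gave more of 3 of them and less of the other 3, beside 20% of tested receptors higher and 13.5% lower. Olfr749 was higher by 3.01 ± 0.14 on the log2 scale and Olfr1426 by 2.41 ± 0.11 (edgeR adjusted p = 1.17e-10 for each), and Olfr121 by 1.09 ± 0.14 (adjusted p = 4.4e-05). Olfr509 differed by -1.97 ± 0.20 (adjusted p = 1.83e-05), Olfr1408 by -1.79 ± 0.19 (adjusted p = 1.48e-05) and Olfr479 by -0.82 ± 0.16 (adjusted p = 0.00324). Scaling on receptor genes alone changed the split of all receptors to 107 higher and 139 lower, against 173 and 117, without changing these 6 calls. Libraries of the pairs did not overlap for Olfr749, Olfr1426 and Olfr509, and did for Olfr121, Olfr1408 and Olfr479. This contrast uses the libraries that made the choice, among them A&D, where the choice favours a raised level. The count of 6 is therefore no independent support.

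The delivery effects that chose the receptors were as follows. On 1 paper against 2 papers of acetophenone and decanal, Olfr1408 changed by -2.49 ± 0.29 on the log2 scale (SE), Olfr509 by -2.14 ± 0.29 and Olfr479 by -1.93 ± 0.23. For Olfr1426 the value was -1.77 ± 0.15, for Olfr121 -1.37 ± 0.19 and for Olfr749 -0.86 ± 0.17. The same contrast with octanal and cis-3-hexenol was small or of the other sign. It was -0.51 ± 0.26 for Olfr1408, -0.24 ± 0.27 for Olfr509, -0.40 ± 0.22 for Olfr479, -0.03 ± 0.16 for Olfr1426, -0.15 ± 0.19 for Olfr121 and 0.64 ± 0.20 for Olfr749. All 6 had A+D below A&D without overlap, a pattern seen in 13.3% of tested receptors. None of the 6 had O+C below O&C without overlap (5.31% of receptors), and Olfr749 had O+C above O&C without overlap (5.2%). Since these values made the choice, nothing is read from those counts.

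The difference of the delivery effects was -1.98 ± 0.38 for Olfr1408, -1.90 ± 0.39 for Olfr509, -1.73 ± 0.22 for Olfr1426, -1.54 ± 0.31 for Olfr479, -1.51 ± 0.27 for Olfr749 and -1.22 ± 0.27 for Olfr121. In Olfr1426, Olfr509 and Olfr121 the effect with the octanal pair was no larger than its SE. In Olfr749 opposite signs in the pairs added up. Of all tested genes 0.0104% (2 genes) passed the threshold on this contrast, and of the tested receptors 0.115%, which is Olfr1426 alone; the other 5 did not pass. As the contrast made the choice, nothing is read from this count. The 6 led the receptors by the size of this difference relative to its error, and the next 3 in that order were Olfr875 at -2.54 ± 0.59, Olfr789 at -1.16 ± 0.28 and Olfr716 at -1.23 ± 0.30. Ordered from the most negative difference, the 6 held places 15, 17, 27, 44, 49 and 79 among the 866. Receptors with more negative but less precise differences were therefore passed over.

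**Figure D2:**
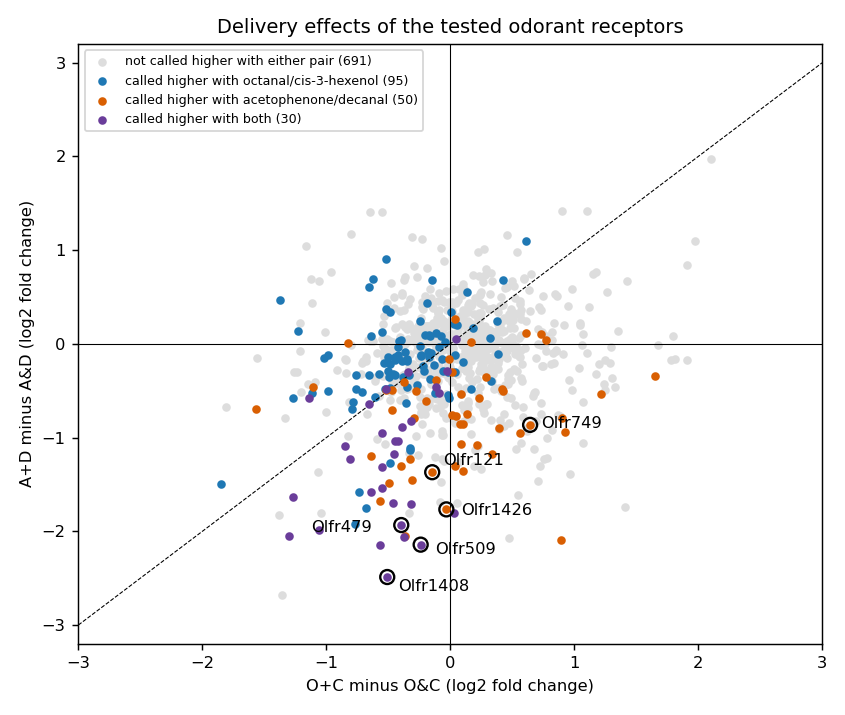
Delivery effect with octanal and cis-3-hexenol (horizontal, log2 of O+C over O&C) against that with acetophenone and decanal (vertical, log2 of A+D over A&D) for the 866 tested receptors, of which 1 lies outside the axes. Colours give the calls of the pooled comparisons with Control, circles mark the 6 receptors, and the dashed line marks equal effects. All 6 circles lie below that line.

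Expressed as the share of the 2-paper rise over the Control mean that was left on 1 paper, the losses were unequal. With acetophenone and decanal, Olfr1408 kept 11.2% (6.01% to 14.5% over the 3 A+D libraries), Olfr509 13.0% (2.45% to 22.9%) and Olfr479 18.8% (8.22% to 27.4%). Olfr121 kept 19.3% (16.2% to 25.5%), Olfr1426 22.5% (18.1% to 25.0%) and Olfr749 47.9% (35.3% to 55.3%). The Olfr749 libraries lay above those of the other 5. With octanal and cis-3-hexenol the 3 receptors that rose kept more: Olfr1408 kept 68.9% (62.9% to 77.2% over the O+C libraries), Olfr479 73.7% (53.1% to 89.7%) and Olfr509 83.8% (66.3% to 101%). For these 3 genes no A+D library reached the share of any O+C library, a description of the values behind the choice.

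The same delivery effects can be set beside those of receptors picked by the pooled comparisons, which include the 6. Of the tested receptors, 80 were called higher with acetophenone and decanal pooled, and 73 of these had a delivery effect below 0 for that pair, with a median of -0.86. For octanal and cis-3-hexenol the same held for 108 of 125 receptors, with a median of -0.39. Over all 866 receptors, 500 and 436 had a delivery effect below 0 with the pairs, and the medians were -0.08 and 0. Among the 30 receptors called higher with both pairs, Olfr1408, Olfr509 and Olfr479 among them, the median delivery effect was -1.20 with acetophenone and decanal and -0.46 with octanal and cis-3-hexenol. Of the 30, 25 had the lower value with acetophenone and decanal, beside 492 of all 866. Chosen receptors add to the 73 and to the 25, so these counts are no independent support. Without A+D 2, 33 receptors were called higher with both pairs, and their medians were -1.30 and -0.47.

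**Figure D3:**
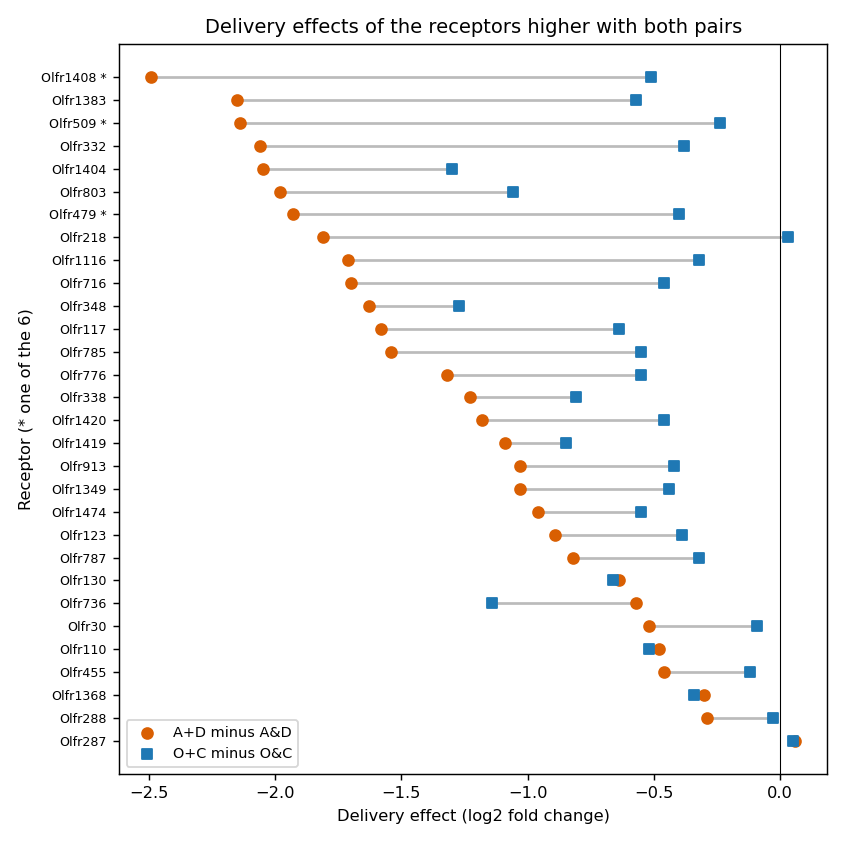
Delivery effects (horizontal axis, log2 fold change of 1 paper over 2 papers) of the 30 receptors called higher with both odorant pairs, 1 row per receptor, with circles for acetophenone and decanal and squares for octanal and cis-3-hexenol. Olfr1408, Olfr509 and Olfr479, marked by asterisks, are among the rows with circles far to the left, and circles lie left of squares in 25 rows.

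The levels of the 6 moved in 2 blocks over the 15 libraries. Pearson's r of log2 CPM was 0.98 for Olfr1408 with Olfr509, 0.97 for Olfr1408 with Olfr479 and 0.94 for Olfr509 with Olfr479. It was 0.93 for Olfr1426 with Olfr749, 0.94 for Olfr1426 with Olfr121 and 0.83 for Olfr749 with Olfr121. Across the blocks it ran from -0.22 to 0.47. All values share the 5 groups and the same libraries, and variation within groups was not separated out.

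The genes with the most similar pattern over the 15 libraries were themselves receptors or, in 1 case, a receptor pseudogene. For Olfr479 they were Olfr716 (r = 0.990), Olfr117 (0.971) and Olfr1408 (0.971). Olfr716 averaged 20.0 ± 3.63 CPM in A+D and 64.9 ± 11.1 CPM in A&D, then 52.3 ± 10.6 CPM in O+C and 72.0 ± 16.6 CPM in O&C, with 6.59 ± 1.67 CPM in Control (SD, n = 3), nearly the profile of Olfr479. Olfr1408 and Olfr509 were each other's closest match (0.984), followed for both by Olfr332 (0.977 with each) and Olfr1383 (0.971 and 0.963). Olfr1426 was most like Olfr1418 (0.955), the pseudogene Olfr1025-ps1 (0.954) and Olfr376 (0.952). Olfr749 was most like Olfr1026 (0.979), Olfr376 (0.975) and Olfr895 (0.974), and Olfr121 like Olfr55 (0.946), Olfr1426 (0.945) and Olfr1009 (0.916).

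The MOR267 family, which holds 3 of the 6, responded unevenly. Of its 15 coding genes 14 were tested, and 6 were called higher with acetophenone and decanal, 8 with octanal and cis-3-hexenol, and 5 with both, 3 of which are the receptors chosen here (9.24% and 14.4% of all tested receptors were higher with the pairs). The medians over the 14 were 0.52 and 2.03 on the log2 scale, against -0.04 and -0.37 over all tested receptors. All of these family counts and medians include the 3 receptors chosen from these data, so no trait of the family is read from them. Besides the 3, Olfr218 and Olfr1404 rose with both pairs, by 3.50 ± 0.45 and 1.60 ± 0.21 with acetophenone and decanal (edgeR adjusted p = 0.000687 and 0.000219). These 2 rose by 3.89 ± 0.45 and 2.58 ± 0.21 with octanal and cis-3-hexenol (adjusted p = 7.66e-05 and 5.81e-07). Olfr55 rose with acetophenone and decanal, by 2.65 ± 0.31 (adjusted p = 0.000116), and differed by 0.69 ± 0.29 with octanal and cis-3-hexenol (adjusted p = 0.114). Olfr1358, Olfr370 and Olfr63 rose with octanal and cis-3-hexenol, by 2.92, 2.20 and 1.85 (adjusted p from 1.18e-07 to 2.86e-05), and their values with acetophenone and decanal were -0.56, 0.53 and 0.20 (adjusted p from 0.0901 to 0.634). The delivery effects of Olfr218 were -1.81 ± 0.40 with acetophenone and decanal and 0.03 ± 0.39 with octanal and cis-3-hexenol, while those of Olfr1404 were -2.05 ± 0.22 and -1.30 ± 0.21. A pseudogene of the family, Olfr1326-ps1, rose by 2.33 and 2.14 with the pairs. The genes named here and in the other families, beyond the 6 and their closest receptors, were picked after their values were seen.

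**Figure D4:**
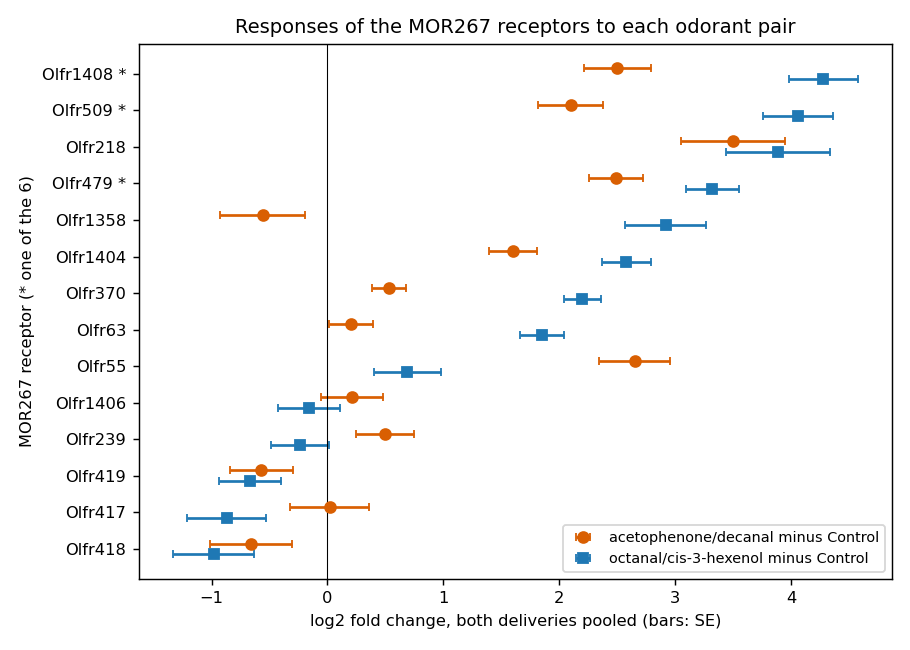
Log2 fold changes over Control, deliveries pooled (horizontal axis, bars are SE), for the 14 tested MOR267 coding genes, with circles for acetophenone and decanal and squares for octanal and cis-3-hexenol. Olfr1408, Olfr509 and Olfr479, marked by asterisks, lie right of 0 with both pairs, while Olfr1406, the closest relative of Olfr1408, lies near 0 with both.

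In the families of the other 3, responses were also divided, and the same shares of all tested receptors, 9.24% with acetophenone and decanal and 14.4% higher or 12% lower with octanal and cis-3-hexenol, stand beside the counts. In MOR106, 5 of 13 tested genes were higher with acetophenone and decanal: Olfr744 by 3.50 ± 0.45, Olfr745 by 3.08 ± 0.22, Olfr749, Olfr736 by 1.83 ± 0.35 and Olfr740 by 1.13 ± 0.14 (adjusted p from 1.19e-07 to 0.0147). With octanal and cis-3-hexenol 1 of the 13 was higher, Olfr736 by 1.73 ± 0.35 (adjusted p = 0.00334), and 3 were lower, Olfr749 as above, Olfr738 by -1.14 ± 0.26 and Olfr741 by -0.96 ± 0.25 (adjusted p = 0.00582 and 0.0148). In MOR239, Olfr1426 was the 1 gene of 7 called with acetophenone and decanal. In that family 2 others, Olfr1427 and Olfr984, rose with octanal and cis-3-hexenol by 2.32 ± 0.17 and 3.59 ± 0.27 (adjusted p = 2.4e-07 and 2.05e-07). In MOR263, Olfr121 and Olfr129 were called higher with acetophenone and decanal, 2 of 10. Another 3 of the 10 were higher with octanal and cis-3-hexenol, Olfr95 by 1.1 ± 0.24, Olfr120 by 0.64 ± 0.21 and Olfr122 by 0.57 ± 0.17 (adjusted p = 0.00427, 0.0414 and 0.0297).

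The closest relatives of Olfr749, Olfr1408, Olfr121 and Olfr1426 did not pass the test with acetophenone and decanal. Olfr747, at 98.3% coding identity to Olfr749, averaged 3.03 ± 0.213 CPM in A+D and 2.34 ± 0.100 CPM in A&D, then 2.00 ± 0.656 CPM in O+C and 1.98 ± 0.181 CPM in O&C, with 2.87 ± 0.441 CPM in Control (SD, n = 3). It differed from Control by -0.10 ± 0.22 with acetophenone and decanal (adjusted p = 0.852), beside 2.46 for Olfr749. Olfr1406, at 88.1% to Olfr1408, differed by 0.21 ± 0.27 (adjusted p = 0.745), and Olfr119, at 95.5% to Olfr121, by -0.38 ± 0.23 (adjusted p = 0.445). Olfr1425, at 94.7% to Olfr1426, had 1.24 ± 0.36 (adjusted p = 0.109), with means of 0.982 CPM in A+D, 1.83 in A&D and 0.565 in Control. It was higher with acetophenone and decanal than with octanal and cis-3-hexenol, by 0.94 ± 0.28 (adjusted p = 0.0309), as Olfr1426 was. Its delivery effects were -0.90 ± 0.38 with acetophenone and decanal and 0.62 ± 0.41 with octanal and cis-3-hexenol, and their difference of -1.52 ± 0.56 lay within its SE of the -1.73 of Olfr1426. Olfr1425 was low, and counts of Olfr1426 were not whole in 14 of 15 libraries. Whether reads of Olfr1426 assigned to Olfr1425 contributed to this likeness was not tested. Olfr119, in contrast to Olfr121, was lower with acetophenone and decanal than with the other pair, by -1.05 ± 0.19 (adjusted p = 0.00177). The differences between relatives were not tested.

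Of the 3 closest receptors of each, with a tie kept, 16 were not among the 6 and 15 of these were tested. Of these, 1 was called higher with acetophenone and decanal, namely Olfr129, which tied with Olfr120 at 90.5% identity to Olfr121. That count and the 1 of 15 with octanal and cis-3-hexenol stand beside the 9.24% and 14.4% of all tested receptors, and nothing particular to relatives is read from them. Olfr129 averaged 3.10 ± 0.748 CPM in A+D and 7.66 ± 1.26 CPM in A&D, then 1.56 ± 0.273 CPM in O+C and 1.51 ± 0.317 CPM in O&C, with 1.66 ± 0.534 CPM in Control (SD, n = 3), a rise of 1.55 ± 0.25 (adjusted p = 0.00243). Its delivery effects, -1.30 ± 0.26 with acetophenone and decanal and 0.04 ± 0.29 with octanal and cis-3-hexenol, lay near those of Olfr121. Whether reads of Olfr121 assigned to Olfr129 contributed to this was not tested. Olfr120 was the 1 called higher with octanal and cis-3-hexenol, by 0.64 ± 0.21 (adjusted p = 0.0414).

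**Figure D5:**
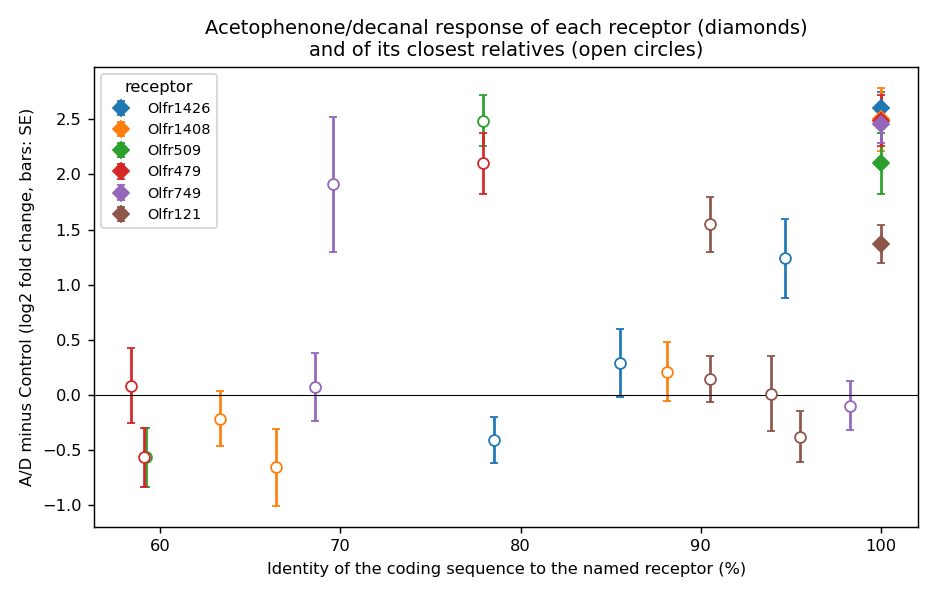
Log2 fold change over Control with acetophenone and decanal, deliveries pooled (vertical axis, bars are SE), against coding identity (horizontal axis, percent). Diamonds at 100 are the 6 receptors and open circles of the same colour their closest tested relatives. The circle at 98.3% is Olfr747, at -0.10, and the circles at 77.9% are Olfr509 and Olfr479 themselves.

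The receptors work through a common cascade, in which the G protein subunit Gnal activates the adenylyl cyclase Adcy3 and cyclic nucleotide-gated channels open. Of 15 genes of that cascade and its helpers, acetophenone and decanal raised 3: Gnal by 0.46 ± 0.09, Gng13, a G protein gamma subunit, by 1.03 ± 0.23, and Omp, a protein of mature olfactory neurons, by 0.52 ± 0.12 (adjusted p = 0.0147, 0.0433 and 0.0485). Octanal and cis-3-hexenol raised 15 of 15, with a median of 0.85, and their shares stand beside 0.962% and 10.1% of all genes called higher with the pairs. Rtp1, Rtp2 and Reep1, which help receptors reach the cell surface, gave 0 of 3 and 3 of 3. Of 7 genes that rise with the activity of these neurons, 5 were higher with acetophenone and decanal and 7 with octanal and cis-3-hexenol, with medians of 0.94 and 2.27. The 5 include Nr4a1, which lay near the threshold (edgeR adjusted p = 0.0479). The lists were chosen with earlier results of these data known, so their counts are no independent support. The potassium channel gene Kcng1 rose by 1.54 ± 0.21 and 2.78 ± 0.22 (adjusted p = 0.000499 and 6.87e-07) and the adhesion gene Kirrel2 by 0.94 ± 0.17 and 1.64 ± 0.18 (adjusted p = 0.00902 and 1.6e-05).

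Taken as a share of all receptor counts in the library, the delivery effects of the 6 were smaller in size with acetophenone and decanal, in the same order. With acetophenone and decanal they were -2.13 for Olfr1408, -1.87 for Olfr509, -1.67 for Olfr479, -1.45 for Olfr1426, -1.06 for Olfr121 and -0.56 for Olfr749. With octanal and cis-3-hexenol they were -0.30, -0.06, -0.23, 0.14, 0.05 and 0.86 in the same gene order, so that the sign changed for Olfr1426 and Olfr121, both near 0 on either scale.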

How the data were processed

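Ribosome-associated RNA was recovered by phospho-S6 immunoprecipitation, and libraries were made with the TruSeq Stranded mRNA kit, per the labels' protocols. The deposited table holds estimated counts per gene (expected counts, not normalized) made by the authors with STAR 2.7.10b, Salmon 1.10.1, R 4.4.2 and build GRCm39, per the submitters' processing notes. The annotation and strand setting are not given in the sources used here. Identifiers were matched to symbols for 52029 of 57010 rows. Counts were rounded. The total per library was 22704193 to 25287077.

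The model was edgeR 4.0.16 in R 4.3.3: TMM scaling, filterByExpr with a minimum count of 10, and the robust quasi-likelihood F test over all 15 libraries with a mean per group. Tests were two-sided, adjusted by Benjamini-Hochberg over 19229 genes, with a threshold of 0.05. The SE is the log2 change over the square root of F, and intervals are approximate. The biological coefficient of variation was 0.183. Replicate libraries differed by more than counting noise (chi-square per degree of freedom 12.5 to 78.9), so each counts as 1. Correlations used log2 CPM with a prior count of 2. A test on simulated data covered the pooled acetophenone and decanal contrast alone, with the same spread set for every gene. It does not cover the other contrasts or genes that differ in spread. DESeq2 1.42.0 was an alternative. Coding sequences, the longest reading frames of GENCODE transcripts on GRCm38, were aligned with Biopython 1.88. No protein table was at hand, so identity is over coding bases instead of residues, alignment gaps included, and no position is given because the builds differ.

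The named genes were the 6 receptors, the 3 genes with the most similar pattern, the 3 closest receptors and the 3 next on the difference, plus list members past the threshold. The receptors and lists were chosen with earlier results of these data known. The lists of immature neuron, basal cell, sustentacular, gland, ciliated, immune, red blood and glial markers were used for checks.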

Additional observations from a re-analysis of the deposited data

Results flagged for a closer look

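Olfr1426 was marked because its difference of delivery effects, -1.73 ± 0.22 on the log2 scale, was past the threshold over all genes. That contrast chose it, so this is no independent support. Across all tested receptors 0.115% passed that threshold, which is this 1 gene.

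Olfr749 was marked because its libraries moved in opposite directions between deliveries in the odorant pairs: every A+D library was below every A&D library, and every O+C library was above every O&C library. The difference was -1.51 ± 0.27, and it did not pass the threshold in the fit over all genes. The same contrast chose this receptor. Its level with octanal and cis-3-hexenol was low, from 1.95 to 4.26 CPM, and its counts were not whole in any library.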

How the results depend on the processing

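The 6 calls with acetophenone and decanal, the 3 rises with octanal and cis-3-hexenol and the 6 calls between the pairs held under every alternative run: RLE, total-count and receptor-only scaling, no filter, DESeq2, a non-robust fit, a fit over the groups compared alone, the replicate block, and leaving out each library. The highest adjusted p was 0.0124, for Olfr509 with acetophenone and decanal. The exception was the fall of Olfr749 with octanal and cis-3-hexenol. The count of receptors among the 6 called lower with that pair, 1, was 0 under receptor-only scaling and 0 in the fit over the groups compared alone (-0.54, adjusted p = 0.0512), and ran from 0 to 1 without 1 library. The cause was not tested. The median difference of delivery effects, -1.64, ran from -1.78 to -1.50 without 1 library and from -1.66 to -1.46 otherwise. Receptor-only scaling moved the median of all genes with octanal and cis-3-hexenol to 0.23, against -0.03, and that of the difference to 0.17, against 0.

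Background counts moved more. All genes higher with acetophenone and decanal numbered 185 (80 to 656 over the alternatives) and lower 50 (0 to 377), and receptors lower 0 (0 to 11). With octanal and cis-3-hexenol, all genes higher were 1939 (1151 to 3393), all genes lower 1353 (83 to 2135) and receptors lower 104 (21 to 147). Between the pairs, all genes higher were 1296 (209 to 1984), all genes lower 1736 (1103 to 3617) and receptors higher 173 (107 to 187).

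Libraries with the same replicate number did not deviate together (correlation of deviations -0.33 to 0.14, median -0.04, against -0.22 to 0.33 for different numbers), so the numbers are not taken as pairs. With the replicate block, genes lower with acetophenone and decanal were 6, against 50, and no call of the 6 receptors changed. Values of low receptors were less precise: the SE with acetophenone and decanal was 0.36 for Olfr1425, with group means from 0.561 to 1.83 CPM, and 0.15 for Olfr1426. Among genes of the lists the alternatives were run for Nr4a1 alone, and only on the difference of delivery effects. The pooled calls of list genes were not rerun. Of these, Gng13, Omp and Nr4a1 (edgeR adjusted p = 0.0479) lie near the threshold with acetophenone and decanal.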

Other observations

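Over all 19229 genes, 0.0104% passed the threshold on the difference of delivery effects, which is 2 genes: Olfr1426 and Nr4a1 (ENSMUSG00000023034), an immediate early gene that neurons induce when active. At an unadjusted p under 0.05 there were 517 genes. Nr4a1 had 38.5, 33.5 and 41.0 CPM in A+D and 78.8, 90.1 and 72.3 CPM in A&D. It had 211, 229 and 293 CPM in O+C, 181, 164 and 209 CPM in O&C, and 43.6, 37.9 and 31.1 CPM in Control. The A+D libraries lay within the Control range, and all O+C libraries were above all O&C libraries. The difference was -1.50 ± 0.21 on the log2 scale (edgeR adjusted p = 0.0115, or 1.39e-07 by DESeq2). The call was lost under receptor-only scaling (-1.33, adjusted p = 0.172), with the replicate block (0.0601), without A&D 2 (-1.41, adjusted p = 0.0712) and without O&C 1 (0.053), and adjusted p over all alternatives ran from 1.04e-12 to 0.172. Nr4a1 stood in a list of activity genes, and was singled out after its values were seen.

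Markers of other cells differed in spread. The summed level of 5 gland genes ran from 76.4 to 793 CPM in A+D, 3.38 to 1340 in A&D, 326 to 938 in O+C, 4.01 to 570 in O&C and 580 to 879 in Control, and its part in the receptor levels was not tested. With acetophenone and decanal, 0 of the genes in the lists of immature neuron, basal, sustentacular, gland, ciliated, immune, red blood and ensheathing glial markers was called. With octanal and cis-3-hexenol, 3 of 4 sustentacular, 1 of 3 immune, 2 of 2 red blood and 1 of 3 glial markers were called lower, and 0 of the 5 gland, 4 immature neuron, 3 ciliated, 3 globose basal and 3 horizontal basal markers. Beside them, 7.04% of all tested genes were lower with that pair. That count, 1353, was 83 under receptor-only scaling, and the alternatives were not run for these markers.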
